A study of Arabidopsis thaliana with 9 samples.

Results

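The zinc finger genes ZAT5, ZAT6, ZAT7, ZAT10, ZAT11, ZAT12, AZF1, AZF2 and AZF3 of Arabidopsis thaliana were followed through repeated cold. They were picked out by locus identifier, a rule that uses no measured value, but with earlier results of these data known. All 9 were found among the 25320 genes measured. The study's title concerns trimethylation of histone H3 lysine 4 and memory of low temperature. RNA was sequenced from stems and leaves of wild-type (WT) plants, raised in soil as seedlings of 2 weeks, in 9 libraries that form 3 groups of 3. The control group (day 0, 0 cold cycles) was kept at room temperature or sampled before the stress. The cold once group (day 1) received 1 cycle, in which 6 h of cold at 4 °C were followed by 18 h of recovery at room temperature. The repeated cold group (day 4) received 4 such cycles. A closing step of 6 h at 0 °C is also given in the labels, which do not state if plants were collected ahead of it or at its end. Day, plant age and number of cycles differ together between the groups and cannot be told apart. If plants were collected at its end, the closing step also separates both cold groups from control and cannot be told apart from the cycles. Hour of collection was not a term in the comparisons, and the part of time of day was not tested. All plants shared the WT genotype.

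These genes encode small nuclear proteins with a pair of separated C2H2 zinc fingers. Each finger holds the plant-specific QALGGH helix that contacts DNA, and a short repression box near the C-terminus, the EAR motif, recruits corepressors of the TOPLESS type and histone deacetylases. In Arabidopsis leaves several of them are rapidly induced by cold, high light, salt, wounding or hydrogen peroxide. They are placed downstream of calcium and mitogen-activated protein kinase (MAPK) signalling, where they lower the expression of other stress, growth and hormone genes.

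The upstream regions of the 4 genes whose difference from control was called after both treatments are shown first. Each is the 300 bases before the annotated gene start in TAIR10.1, written 5′ to 3′ on the gene's own strand. Capitals mark, on either strand, the C-repeat core CCGAC bound by CBF factors, the abscisic acid response core ACGTG, the W box TTGAC bound by WRKY factors, and the evening element AAATATCT. ZAT12 (AT5G59820) lies on chromosome 5 at 24102814 to 24103794 on the plus strand, and its region is chr5:24102514-24102813. ZAT10 (AT1G27730) lies on chromosome 1 at 9648021 to 9649323 on the minus strand, and its region is chr1:9649324-9649623. ZAT11 (AT2G37430) lies on chromosome 2 at 15706285 to 15707224 on the plus strand, with the region chr2:15705985-15706284. AZF2 (AT3G19580) lies on chromosome 3 at 6802903 to 6804296 on the minus strand, with the region chr3:6804297-6804596. The sequences are RefSeq's.
ZAT12: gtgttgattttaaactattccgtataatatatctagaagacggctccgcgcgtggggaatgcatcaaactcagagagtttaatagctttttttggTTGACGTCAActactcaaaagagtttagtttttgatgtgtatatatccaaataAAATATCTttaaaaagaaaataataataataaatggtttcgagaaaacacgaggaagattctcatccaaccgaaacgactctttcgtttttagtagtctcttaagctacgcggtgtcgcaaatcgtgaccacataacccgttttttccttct
ZAT10: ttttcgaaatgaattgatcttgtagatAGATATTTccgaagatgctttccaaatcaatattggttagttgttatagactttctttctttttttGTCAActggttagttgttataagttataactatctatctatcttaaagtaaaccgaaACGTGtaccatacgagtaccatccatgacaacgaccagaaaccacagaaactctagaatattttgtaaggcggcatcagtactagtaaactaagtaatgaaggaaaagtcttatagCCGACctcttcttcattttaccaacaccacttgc
ZAT11: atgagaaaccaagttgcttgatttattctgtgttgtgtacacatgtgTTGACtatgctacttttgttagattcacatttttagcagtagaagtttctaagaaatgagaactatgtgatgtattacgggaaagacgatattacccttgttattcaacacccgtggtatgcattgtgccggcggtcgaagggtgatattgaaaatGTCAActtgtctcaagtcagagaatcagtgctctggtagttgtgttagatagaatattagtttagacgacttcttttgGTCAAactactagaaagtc
AZF2: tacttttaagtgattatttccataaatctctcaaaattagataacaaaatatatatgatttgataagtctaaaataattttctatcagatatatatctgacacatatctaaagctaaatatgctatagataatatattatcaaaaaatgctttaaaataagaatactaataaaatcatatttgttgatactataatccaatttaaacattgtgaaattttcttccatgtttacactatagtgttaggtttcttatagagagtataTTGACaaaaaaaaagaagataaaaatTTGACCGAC
The C-repeat core was present in this window of ZAT6, ZAT10, AZF2 and AZF3, 4 of the 9 genes. It occurred in 14.3% of the 23578 windows of the same length upstream of the measured protein-coding nuclear genes. ZAT10 and ZAT12 held the evening element, found in 5.84% of windows. The W box was in 7 of the 9 windows, all but those of ZAT6 and AZF3, and in 50.4% of windows. The abscisic acid core was in the windows of ZAT10 and AZF3 and in 26.2% of all windows. The heat shock unit GAANNTTC (11.4% of windows) occurred in ZAT6, ZAT7, ZAT11 and ZAT12, and the rapid stress response element CGCGTT (3.23% of windows) in none of the 9. The W boxes of ZAT12 adjoin each other on opposite strands, and the C-repeat core of AZF2 shares a base with a W box. ZAT12 and ZAT10 differ in the C-repeat core and share the evening element, while ZAT11 holds W boxes and a heat shock unit only. These matches describe letters in a window and were not tested as binding sites.

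The coding sequences show what the proteins have in common. All 9 genes hold 2 in-frame QALGGH helices. After the second finger, 7 genes hold a DLN-type EAR box, and ZAT7 and ZAT12 hold an LxLxL-type box without a DLN type. ZAT5 and ZAT11 also hold 2 LxLxL matches each there, so the types are not exclusive. ZAT12 holds 3 LxLxL matches there, which may overlap, and the first is shown. Where a DLN type was present, it is the box shown. The boxes are shown with their 3 DLN codons or 5 LxLxL codons in capitals, read on the coding strand.
ZAT12: gcttgtTTGGATCTGAGTCTAgggatg
ZAT7: gcttgtTTGGATTTGGACTTAgattcg
ZAT10: gggtttGACCTCAACatccctccgatc
ZAT6: gggtttGACCTCAACataccgccgata
AZF3: ggatttGACCTTAATattataccggtg
AZF1: ggatttGACCTAAACttaccggctgat
AZF2: ttcatcGATCTAAACctaccggcgtta
ZAT5: ccgttgGATCTTAATctaccagcacca
ZAT11: agtttgGATTTGAATctgactccgtta
The coding regions span 162 codons in ZAT12, 168 in ZAT7, 178 in ZAT11, 193 in AZF3, 227 in ZAT10, 238 in ZAT6, 245 in AZF1, 273 in AZF2 and 286 in ZAT5. Identity was taken over all columns of a global alignment of the coding sequences, gaps included, which is lower than over aligned bases alone. ZAT10 and ZAT6 were 72.1% identical by this measure, ZAT12 and ZAT7 69.8%, and AZF3 and ZAT10 63.9%. The closest relative of a member was ZAT8, 88.2% identical to ZAT7 with a longest shared run of 44 bases and 2581 bases away on chromosome 3. Reads of ZAT7 and ZAT8 could have been split between them, so the ZAT7 values are uncertain.

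Transcript levels are given as FPKM, a count of fragments divided by gene length and library size, which can be compared between genes. Library depth ranged from 17.98 to 21.49 M reads. Changes were tested with limma on log2(FPKM + 1) over 17740 genes, and a gene was called at a Benjamini-Hochberg adjusted p under 0.05 over all of them. All 9 genes passed the minimum of FPKM 1 in 3 libraries. Over all tested genes the median change was -0.16 log2 units after cold once and -0.10 after repeated cold, both against control. Flower markers summed to 9.43 to 42.5 FPKM in control, 1.81 to 7.7 FPKM after cold once and 0.974 to 28.7 FPKM after repeated cold. All 7 had lower means after cold once than in control, of which limma called SEP3 (-2.07 log2 units), and the libraries of AP3 and PI did not overlap either. After repeated cold limma called none of the 7 (1 at an unadjusted p under 0.05, SEP3), while voom called SEP3 lower. AP3 was at 0 in 3 treated libraries. Root markers summed to 25.2 to 62.9, 18.8 to 63.6 and 10.7 to 39.1 FPKM over the 3 groups, nearly all of it PYK10, with IRT1 at or near 0 throughout, and NRT2.1, 1 of the 2 tested, rose in both comparisons with control. The green shoot markers RBCS1A, LHCB1.1 and LHCA1 were abundant, summing to 16385 to 18503, 21559 to 24407 and 18310 to 23855 FPKM, and RBCS1A rose and LHCA1 fell in both comparisons with control. The part of these markers in the results below was not tested.

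After 1 cold cycle, ZAT12, ZAT10 and AZF3 rose, and ZAT11, AZF2 and AZF1 fell. Thus 6 of the 9 genes were called against control, where 52.3% of all tested genes were called. The share of all tested genes called higher was 18.7% and the share called lower was 33.6%, beside 3 and 3 of the 9. Median-of-ratios scaling, which moves the median gene to -0.01, gave 4536 higher and 4432 lower genes, against 3314 and 5964 without it. The median change of the 9 genes was 0.13 log2 units, against -0.16 over all tested genes. Libraries of cold once and control did not overlap in 6 of the 9 genes (ZAT7, ZAT10, ZAT11, ZAT12, AZF2 and AZF3) and in 64.6% of all tested genes. After 4 cycles, 5 of the 9 were called against control, beside 39.5% of all tested genes. ZAT12, ZAT10 and ZAT5 rose (14.6% of all tested genes were called higher), and ZAT11 and AZF2 fell (24.9% were called lower). The median of the 9 was then 0.30 log2 units, against -0.10 over all tested genes. Libraries of repeated cold and control did not overlap in 7 of the 9, all but ZAT6 and AZF1, and in 50.7% of all tested genes. Both comparisons use the same control libraries, so their results are not independent of each other. In bulk tissue, fewer cells of a type and less RNA per cell cannot be told apart.

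**Figure D1:**
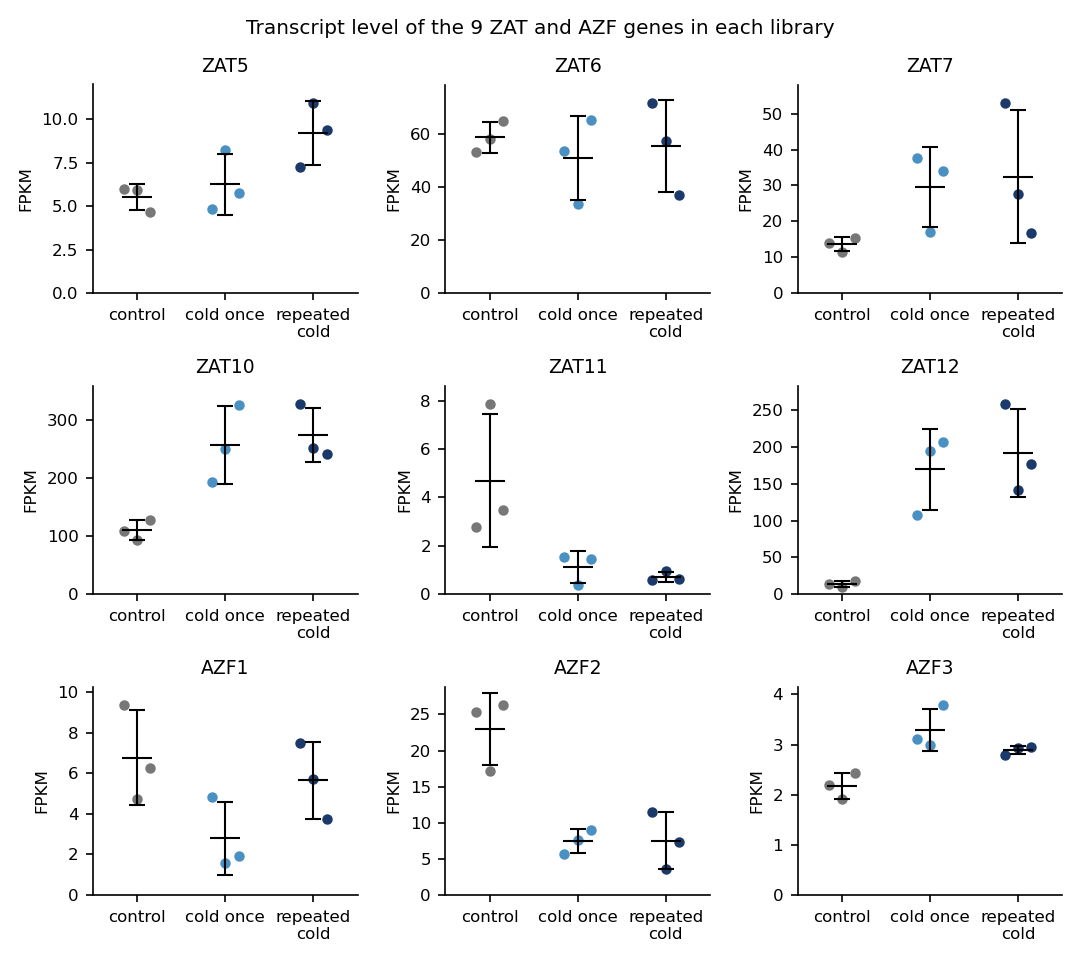
Transcript level (FPKM, linear axis from 0) of each of the 9 genes in control, cold once and repeated cold libraries, with dots for libraries, a horizontal bar for the mean and error bars for 1 SD (n = 3). ZAT12 and ZAT10 sit higher in all 6 cold libraries than in any control library, and ZAT11 and AZF2 sit lower.

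ZAT12 encodes a regulator that Arabidopsis plants need for normal responses to oxidative stress and that dampens part of the CBF cold pathway when overproduced. Its transcript level was 14.2, 9.91 and 17.8 FPKM in control, 107.1, 194.5 and 207.6 FPKM after cold once, and 258.2, 141.6 and 177.3 FPKM after repeated cold. Every cold library was at least several-fold above every control library, and the libraries of both cold groups overlapped. The mean was 169.7 ± 54.6 FPKM after cold once, against 13.99 ± 3.96 FPKM in control (SD, n = 3 each), a 12.1-fold difference. On the log2 scale the change was 3.49 ± 0.31 (SE; limma adjusted p = 3.07e-05). After repeated cold the mean of 192.4 ± 59.7 FPKM was 13.7-fold that of control, with a change of 3.68 ± 0.31 (limma adjusted p = 3.96e-05). These were the largest changes of the 9 genes in both comparisons. Between 195 and 4647 reads lay behind each value.

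ZAT10, also called STZ, encodes a salt- and cold-responsive repressor and is a phosphorylation target of MAPKs. It had 108.2, 93.4 and 127.3 FPKM in control, 193.1, 250.1 and 325.7 FPKM after cold once, and 326.3, 251.9 and 241.1 FPKM after repeated cold. The lowest cold library was above the highest control library. Cold once gave a mean of 256.3 ± 66.5 FPKM, against 109.6 ± 17.0 FPKM in control, 2.34-fold (log2 change 1.20 ± 0.20, limma adjusted p = 0.00114). Repeated cold gave 273.1 ± 46.4 FPKM, 2.49-fold that of control (1.31 ± 0.20, limma adjusted p = 0.00112). ZAT10 had the highest mean of the 9 genes in each group.

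ZAT7, which in Arabidopsis needs its EAR box for its effect on salt tolerance, had 13.9, 11.5 and 15.4 FPKM in control, 37.7, 16.9 and 34.0 FPKM after cold once, and 52.9, 27.7 and 16.8 FPKM after repeated cold. All 6 cold libraries were above the control libraries, but the second cold once and the third repeated cold library were only slightly so. Mean levels were 29.5 ± 11.1 FPKM after cold once and 32.4 ± 18.5 FPKM after repeated cold, against 13.6 ± 1.96 FPKM in control. The gene lies on chromosome 3 at 16925881 to 16926883 on the minus strand. Neither difference passed the test (1.00 ± 0.40 with limma adjusted p = 0.0602, and 1.06 ± 0.40 with 0.0607). Both were called under median-of-ratios scaling (limma adjusted p = 0.0332 and 0.0424). Without the second cold once library the first became 1.35 (limma adjusted p = 0.0199), and without the third repeated cold library the second became 1.44 (limma adjusted p = 0.0188). Over all left-out libraries the first ran from 0.79 to 1.35 (limma adjusted p up to 0.169). The second ran from 0.64 to 1.44 (limma adjusted p up to 0.175). With voom on recovered reads neither was called. The neighbouring ZAT8 was at 4.74, 4.0 and 4.51 FPKM in control, 8.32, 4.16 and 7.44 FPKM after cold once, and 16.1, 8.42 and 2.51 FPKM after repeated cold. In ZAT8, too, the second cold once and the third repeated cold libraries were the lowest of their groups, and neither difference from control was called (limma adjusted p = 0.452 and 0.341).

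ZAT6 (chromosome 5, 1216058 to 1217362, minus strand) acts in phosphate homeostasis and stress tolerance in Arabidopsis. It was at 53.3, 58.2 and 65.0 FPKM in control, 53.8, 33.7 and 65.4 FPKM after cold once, and 71.6, 57.5 and 37.2 FPKM after repeated cold. Libraries of all 3 groups overlapped. The change was -0.25 ± 0.27 log2 units after cold once (95% interval -0.86 to 0.36) and -0.13 ± 0.27 after repeated cold (95% interval -0.74 to 0.48), both against control (limma adjusted p = 0.464 and 0.732). ZAT6, the closest of the 9 to ZAT10 by coding sequence, was called in neither comparison and ZAT10 in both, and the difference between them was not tested.

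ZAT5 (chromosome 2, 12023940 to 12025370, plus strand) had 6.02, 5.96 and 4.69 FPKM in control, 4.81, 8.22 and 5.74 FPKM after cold once, and 7.27, 10.9 and 9.42 FPKM after repeated cold. The repeated cold libraries were all above the control libraries, and the cold once libraries overlapped both other groups. Its mean of 9.2 ± 1.83 FPKM after repeated cold was 1.66-fold that of control at 5.56 ± 0.749 FPKM (0.63 ± 0.19, limma adjusted p = 0.0292). The call was lost without any 1 of the 3 control libraries or without the second or the third repeated cold library (log2 change 0.51 to 0.77 over all left-out libraries, limma adjusted p up to 0.102). After cold once the mean was 6.26 ± 1.76 FPKM and the change from control was not called (0.13 ± 0.19, limma adjusted p = 0.608).

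AZF2 encodes an abscisic acid- and salt-responsive repressor that, with AZF1, lowers abscisic acid- and auxin-responsive genes under osmotic stress. It was at 25.3, 17.2 and 26.2 FPKM in control, 5.69, 7.63 and 9.03 FPKM after cold once, and 11.5, 3.67 and 7.32 FPKM after repeated cold. No cold library reached the lowest control library. Means were 7.45 ± 1.68 FPKM after cold once, against 22.9 ± 4.98 FPKM in control, 3.08-fold lower (-1.50 ± 0.33, limma adjusted p = 0.00439). After repeated cold the mean was 7.51 ± 3.93 FPKM, 3.05-fold lower than control (-1.58 ± 0.33, limma adjusted p = 0.00488).

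ZAT11, a gene tied to nickel tolerance and oxidative stress in Arabidopsis, was low in every library. It had 2.77, 7.85 and 3.47 FPKM in control, 1.53, 0.364 and 1.46 FPKM after cold once, and 0.58, 0.947 and 0.614 FPKM after repeated cold. The cold libraries all lay below the control libraries, and the second control library was well above the other control libraries. Cold once had a mean of 1.12 ± 0.655 FPKM, against 4.7 ± 2.75 FPKM in control, 4.2-fold lower (-1.38 ± 0.33, limma adjusted p = 0.00737). With a mean of 0.714 ± 0.203 FPKM after repeated cold, ZAT11 was 6.58-fold lower than in control (-1.64 ± 0.33, limma adjusted p = 0.00452). Values rested on 7 to 148 reads, a counting error of 37.8% at the lowest, and the log2(FPKM + 1) scale understates such changes.

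AZF1 (chromosome 5, 26918765 to 26920179, minus strand) had 9.34, 4.72 and 6.25 FPKM in control, 4.83, 1.59 and 1.95 FPKM after cold once, and 7.51, 5.7 and 3.74 FPKM after repeated cold. The first cold once library lay just above the lowest control library, so these groups overlapped. The mean was 2.79 ± 1.78 FPKM after cold once, against 6.77 ± 2.35 FPKM in control (-1.09 ± 0.34, limma adjusted p = 0.0243). That call was lost without the first control library, the third control library, the second cold once library or the third cold once library (log2 change -1.45 to -0.86 over all left-out libraries, limma adjusted p up to 0.0897), and also under quantile normalization (-0.85, limma adjusted p = 0.0629). After repeated cold the mean was 5.65 ± 1.88 FPKM and the change from control was not called (-0.22 ± 0.34, 95% interval -0.99 to 0.55, limma adjusted p = 0.639).

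AZF3 (chromosome 5, 17330945 to 17331646, minus strand) had the lowest mean level of the 9 in control, with 2.19, 1.92 and 2.42 FPKM, and was at 3.11, 2.99 and 3.78 FPKM after cold once and 2.79, 2.93 and 2.95 FPKM after repeated cold. All cold libraries were above all control libraries. The mean of 3.29 ± 0.427 FPKM after cold once was 1.51-fold that of control at 2.18 ± 0.253 FPKM (0.43 ± 0.11, limma adjusted p = 0.0113), and the call was lost without the third cold once library (limma adjusted p = 0.0508). After repeated cold the mean was 2.89 ± 0.0841 FPKM and the change of 0.30 ± 0.11 was not called (limma adjusted p = 0.0681), but it was called under median-of-ratios scaling (0.38, limma adjusted p = 0.0253). AZF3 overlaps QWRF9 on the opposite strand, and whether counting used strand is not given in the sources used here, so reads of these genes cannot be told apart. QWRF9 averaged 2.19 FPKM after cold once and 2.23 FPKM after repeated cold, against 2.27 FPKM in control. The AZF3 values rested on 27 to 54 reads.

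Between 4 cold cycles and 1, limma called none of the 9 genes, beside 1.27% of all tested genes, 0.738% higher and 0.536% lower. At an unadjusted p under 0.05 limma gave 2 of the 9, ZAT5 and AZF1, near the share of 19.8% among all tested genes, and limma voom on recovered reads called 0. AZF1 was 2.03-fold higher after repeated cold than after cold once (0.87 ± 0.34, 95% interval 0.10 to 1.64, limma adjusted p = 0.207). ZAT5 was 1.47-fold higher (0.50 ± 0.19, 95% interval 0.07 to 0.94, limma adjusted p = 0.198). For ZAT12 the change was 0.19 ± 0.31 with an interval of -0.50 to 0.89, and for ZAT10 it was 0.11 ± 0.20 with -0.35 to 0.57. The intervals of ZAT7 (-0.84 to 0.95), ZAT11 (-1.01 to 0.50), AZF2 (-0.82 to 0.66), ZAT6 (-0.49 to 0.73) and AZF3 (-0.40 to 0.12) also held 0. AZF3 was the 1 gene of the 9 whose repeated cold libraries did not overlap the cold once libraries, all lying below them, beside 23.8% of all tested genes without overlap. These intervals do not show that the levels were equal.

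**Figure D2:**
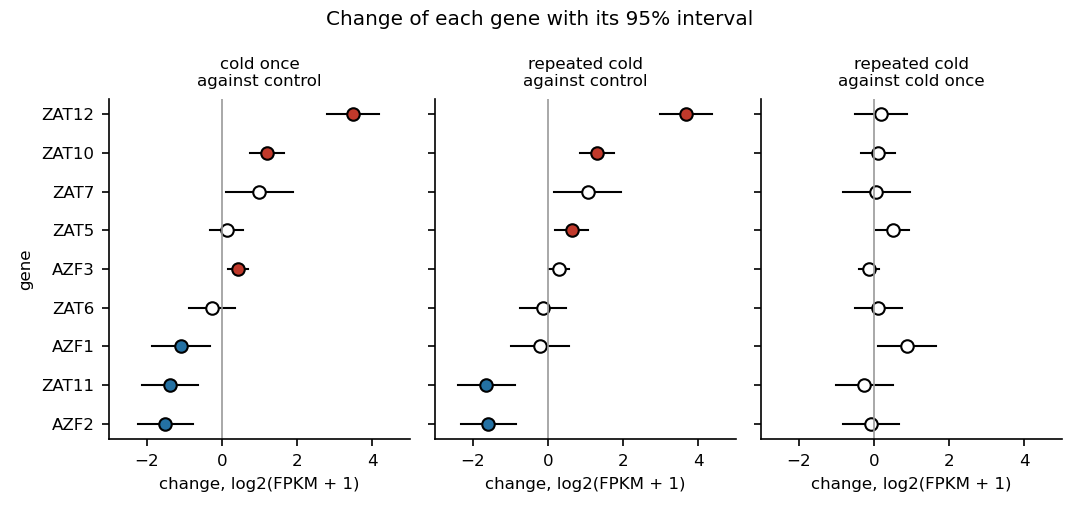
Change of each of the 9 genes in log2(FPKM + 1), as a dot with its 95% limma interval, for cold once against control, repeated cold against control, and repeated cold against cold once. Red dots were called higher, blue dots called lower and white dots not called at an adjusted p of 0.05, and all dots for repeated cold against cold once are white.

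The order of levels among the 9 genes differed between control and the cold groups. In control the order by mean was ZAT10, ZAT6, AZF2, ZAT12, ZAT7, AZF1, ZAT5, ZAT11 and AZF3. Ranges of neighbours overlapped there between AZF2 and ZAT12, ZAT12 and ZAT7, AZF1 and ZAT5, and ZAT5 and ZAT11. After cold once ZAT12 stood next to ZAT10 with overlapping ranges, both above ZAT6, followed by ZAT7, AZF2, ZAT5, AZF3, AZF1 and ZAT11. Overlap there joined ZAT6 with ZAT7, AZF2 with ZAT5, and AZF3 with AZF1. After repeated cold the order was ZAT10, ZAT12, ZAT6, ZAT7, ZAT5, AZF2, AZF1, AZF3 and ZAT11. In it ZAT10 and ZAT12, ZAT6 and ZAT7, ZAT5 and AZF2, and AZF2 and AZF1 overlapped.

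The sum over the 9 genes was 235.3, 210.7 and 268.6 FPKM in control, 411.8, 516.1 and 654.6 FPKM after cold once, and 738.6, 502.8 and 496.4 FPKM after repeated cold. Every cold library held a larger sum than any control library. ZAT12 made up 5.8 ± 0.991% of the sum in control, 31.8 ± 5.83% after cold once and 32.9 ± 4.17% after repeated cold. ZAT10 made up 45.9 ± 1.53%, 48.4 ± 1.42% and 47.6 ± 3.08% in the same order of groups. ZAT6 took 24.8 ± 2.55% in control, 9.86 ± 3.27% after cold once and 9.54 ± 1.98% after repeated cold, and AZF2 took 9.57 ± 1.31%, 1.41 ± 0.0573% and 1.26 ± 0.457%. Thus a larger total was shared mainly between ZAT10 and ZAT12 in the cold libraries. Shares add to a fixed total, so a larger share of ZAT12 lowers the others, and these shares are a description without a test.

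**Figure D3:**
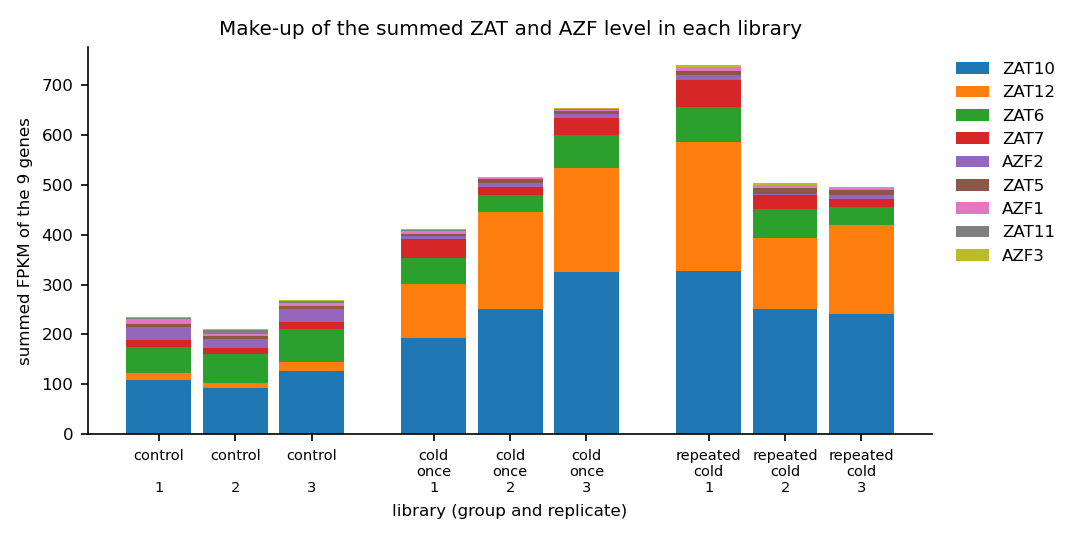
Summed FPKM of the 9 genes in each of the 9 libraries, stacked by gene, for control, cold once and repeated cold with replicate numbers below. ZAT10 (blue) and ZAT12 (orange) fill most of each cold bar, and ZAT12 is a thin layer in the control bars.

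The other C2H2 zinc finger genes of the ZAT type gave a mixed picture at low levels. Of 13 in the table, 5 passed the minimum level. Over all tested genes, 18.7% were called higher and 33.6% lower after cold once, and 14.6% and 24.9% after repeated cold. After cold once 1 rose, AT5G03510 (0.52 ± 0.15 log2 units, limma adjusted p = 0.0151), and 3 fell, AT2G28710 (-1.35 ± 0.22, 0.000836), AT3G49930 (-0.56 ± 0.15, 0.0111) and ZAT9 (-0.44 ± 0.15, 0.0303). After repeated cold AT5G03510 rose (0.50) and AT2G28710 fell (-0.72). The call of AT2G28710 after repeated cold and that of ZAT9 after cold once were not made under median-of-ratios scaling or quantile normalization, nor that of AT3G49930 after cold once under quantile normalization. Between 4 cycles and 1, AT3G49930 rose, with 1.46, 1.59 and 1.69 FPKM after repeated cold, against 0.733, 0.316 and 0.364 FPKM after cold once (0.82 ± 0.15, limma adjusted p = 0.0364). Its repeated cold libraries all lay above the cold once libraries. Of all tested genes, 1.27% were called in this comparison and 23.8% did not overlap. The AT3G49930 values rested on few reads, 29, 31 and 38 after repeated cold and 16, 7 and 8 after cold once. AT3G49930 was 63.6% identical to AZF1 over all columns of the coding alignment, gaps included.

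Among 8 genes of EAR corepressors, the TOPLESS family and partner deacetylases, 2 rose and none fell after cold once. Calls covered 52.3% of all tested genes after cold once and 39.5% after repeated cold. TPL, the TOPLESS corepressor itself, was at 45.1, 42.4 and 44.2 FPKM after cold once, 52.6, 32.5 and 48.9 FPKM after repeated cold, against 31.9, 25.1 and 30.2 FPKM in control. Its cold libraries were all above its control libraries, by 0.59 ± 0.17 log2 units after cold once (limma adjusted p = 0.0183) and 0.58 ± 0.17 after repeated cold (limma adjusted p = 0.0251). HDA19, a histone deacetylase, rose by 0.25 ± 0.09 after cold once (limma adjusted p = 0.0321). TPL was the 1 corepressor called after repeated cold. No gene of this list was called between 4 cycles and 1 by limma (0 at an unadjusted p under 0.05, 0 with voom).

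Of 13 cold, calcium and MAPK regulators, 4 rose and 2 fell after cold once, and 5 rose and 1 fell after repeated cold. Beside these counts, 18.7% of all tested genes were called higher and 33.6% lower after cold once, and 14.6% and 24.9% after repeated cold. CBF2, an early cold-induced activator that binds the C-repeat, averaged 910.4 FPKM after cold once and 1039 FPKM after repeated cold, against 8.08 FPKM in control (log2 changes 6.65 and 6.86, limma adjusted p = 9.43e-08 and 1.13e-07). CBF3 (5.51 and 5.80) and CBF1 (5.01 and 5.57) rose in both comparisons as well. OST1, a kinase of abscisic acid and cold signalling, rose by 0.65 after cold once and 0.36 after repeated cold, and MPK4 by 0.46 after repeated cold. CAMTA3, a calmodulin-binding factor that activates CBF2 and ZAT12 in Arabidopsis, fell by 0.97 after cold once and by 0.95 after repeated cold. MPK6, a kinase that phosphorylates ZAT10 and ZAT6, fell by 0.37 after cold once (limma adjusted p = 0.042). That call was not made under median-of-ratios scaling or quantile normalization. Both settings also called ICE1 and MPK4 higher after cold once, and quantile normalization called MPK3 lower. None of the 13 was called between 4 cycles and 1 (0 at an unadjusted p under 0.05 with limma, 0 with voom).

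Other rapid stress transcription factors, often induced beside ZAT10 and ZAT12, split in the same comparisons. Of 20 tested, 6 rose and 5 fell after cold once, and 10 rose and 2 fell after repeated cold. The shares over all tested genes were 18.7% higher and 33.6% lower, then 14.6% higher and 24.9% lower. After cold once RAV1 (1.22), DREB2A (3.07), CRF2 (2.12) and MYB44 (1.62 log2 units) rose, and ERF104 (-2.15), WRKY53 (-2.32), WRKY33 (-1.42) and ERF6 (-0.95) fell. DREB2A, an activator of drought and heat genes, had 27.1, 42.7 and 48.2 FPKM after cold once and 51.8, 26.4 and 46.4 FPKM after repeated cold, against 3.35, 2.45 and 5.75 FPKM in control. After repeated cold RAV1 (1.50), DREB2A (3.13), CRF2 (1.80) and CZF1 (0.92) rose, while ERF104 (-1.69) and DEAR1 (-0.70) fell, the last not called under median-of-ratios scaling or quantile normalization. Between 4 cycles and 1, limma and voom called 0 of the 20. Limma gave 10 of them, and 19.8% of all tested genes, an unadjusted p under 0.05, and the list was not tested against other genes. The median change there was 0.37 log2 units, against 0.06 over all tested genes and 0.11 over the 9 zinc finger genes.

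**Figure D4:**
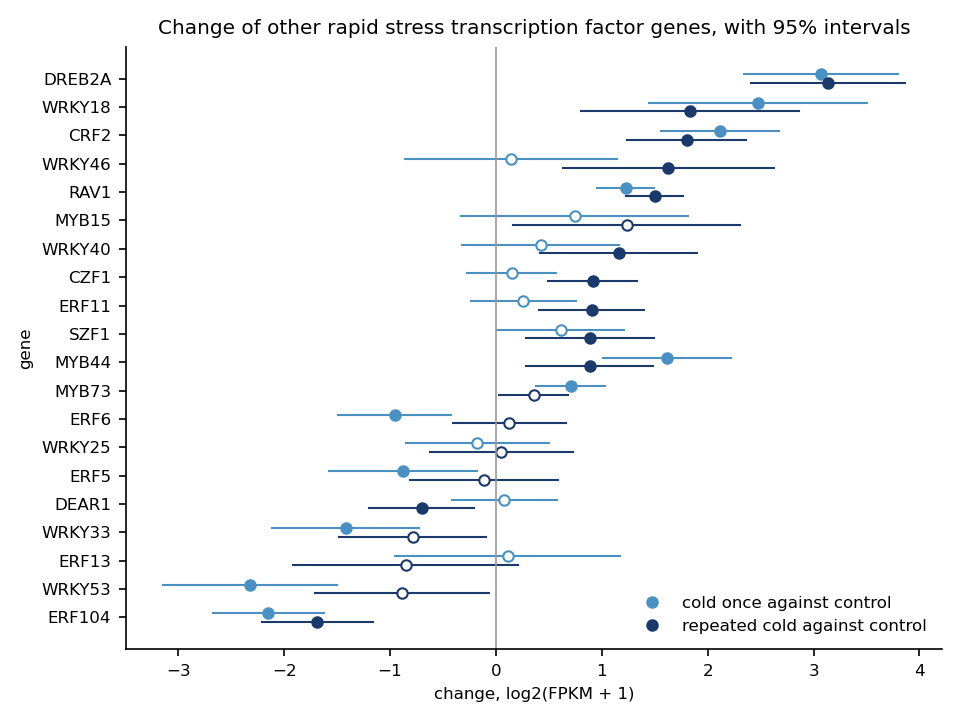
Change in log2(FPKM + 1) of 20 other rapid stress transcription factor genes with 95% limma intervals, for cold once against control (light blue) and repeated cold against control (dark blue). Filled dots were called at an adjusted p of 0.05; DREB2A lies highest after both treatments (3.07 and 3.13) and ERF104 is called lower in both.

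Of 14 tested oxidative stress genes, a process ZAT12 is known for, 2 rose and 7 fell in each comparison with control. Among all tested genes, 18.7% were called higher and 33.6% lower after cold once, and 14.6% and 24.9% after repeated cold. CAT2, a peroxisomal catalase of photosynthetic cells, rose by 2.24 log2 units after cold once and 1.92 after repeated cold. BAP1, a membrane protein that restrains cell death, rose by 2.71 and 2.52. Other catalases fell, CAT3 by 3.73 after cold once and 3.45 after repeated cold, and CAT1 by 2.14 and 2.24. GSH2, glutathione synthetase, fell by 1.19 after cold once and 1.48 after repeated cold. The count of falls after cold once was 4 under median-of-ratios scaling, with 3 rises. Quantile normalization gave 8 falls and 2 rises there, and voom on recovered reads 7 and 2. Between 4 cycles and 1 limma called none (1 at an unadjusted p under 0.05, 0 with voom).

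For each of the 9 genes, the genes with the most similar pattern were ranked by Pearson's r of log2(FPKM + 1) over the 9 libraries among 12401 genes with mean FPKM of at least 5. These values describe patterns over libraries of 3 groups, carry no test, and partly reflect the group means. ZAT12 was nearest to AT4G32020 and DREB2A (r = 0.994 each) and SMXL2 (0.993). ZAT10 was nearest to SOUL-1 (0.99), AT3G07090 (0.984) and SAP6 (0.982). For ZAT7 they were NAC090 (0.957), AT2G34970 (0.948) and MKK4 (0.946), for ZAT5 PAP3 (0.958), and for ZAT6 SURF1 (0.976). AZF2 was nearest to ACX2 and RPN8B (0.982 each), ZAT11 to BLOS2 (0.983), AZF3 to AT4G20340 (0.965), and AZF1 to LHT1 and VSR7 (0.974 each). VSR7, picked for its likeness to AZF1, had 5.11 FPKM after cold once and 12.7 FPKM after repeated cold, against 15.8 FPKM in control.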

How the data were processed

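RNA of 9 libraries (3 control, 3 cold once, 3 repeated cold) was prepared from 0.5 µg of total RNA with a SMARTER kit, per the labels' protocols. The deposited table gives FPKM values computed by the authors for 25320 genes, 1 column per library. The submitters' processing notes name TopHat, Cufflinks and Cuffdiff, and the genome build and strandedness are not given in the sources used here. Starts and ends equalled those of TAIR10.1 for 25094 of 25099 loci (99.98%), so gene models and upstream sequence were read from that RefSeq assembly. From the steps of low FPKM values, whole reads were recovered for 25268 genes (99.8%, tolerance 0.01 read), which gave depths of 17.98 to 21.49 M reads. Counting errors cover counting only. A value of 0 allows 3 reads, 0.14 to 0.167 FPKM for a gene of 1 kb.

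The 17740 genes that reached FPKM 1 in 3 or more libraries were fitted as log2(FPKM + 1), without further scaling, with limma 3.58.1 in R 4.3.3 (lmFit, eBayes with trend, prior degrees of freedom 3.21) and 1 mean per group over all 9 libraries. Benjamini-Hochberg adjusted p under 0.05 made a call. Folds are ratios of mean FPKM, and intervals are 95% limma intervals. Replicates are numbered in the labels without a stated culture, and the spread behind the p-values may be technical. The steps were tested on simulated data in which all genes had the same spread beyond counting, so genes of wider spread were not covered. Sequences were handled with Python 3.11.15 and Biopython 1.88. The members and lists were chosen with earlier results of these data known. All 9 members were named, and from each other list up to 4 called genes with the smallest p per comparison and direction. DAZ2 was not analysed here. Alternatives were pseudocounts, filters, 2 scalings, a replicate block, fits of 2 groups, voom on recovered reads and leaving out each library.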

Additional observations from a re-analysis of the deposited data

How the results depend on the processing

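Over 18 alternatives (17 for ZAT11 and AZF3, absent under the minimum of FPKM 5), ZAT12, ZAT10, ZAT11 and AZF2 were called against control in all, in the same direction, although ZAT11 ranged from -2.13 to -0.63 after cold once and -2.55 to -0.73 after repeated cold, lowest with voom on recovered reads and highest with pseudocount 5. ZAT7 gained a call under 7 alternatives after cold once and 5 after repeated cold. Its limma adjusted p ran from 0.0199 to 0.169 and from 0.0188 to 0.175. AZF1 after cold once lost its call under 5 (quantile normalization and 4 left-out libraries), and ZAT5 after repeated cold under 5. Leaving out libraries turned directions for uncalled changes. Against control these were ZAT5 (-0.06 to 0.27) and ZAT6 (-0.45 to 0.02) after cold once, and ZAT6 (-0.34 to 0.13) and AZF1 (-0.42 to 0.01) after repeated cold. Between repeated cold and cold once they were ZAT6 (-0.15 to 0.38), ZAT7 (-0.36 to 0.44), ZAT10 (-0.08 to 0.30), ZAT12 (-0.11 to 0.39) and AZF2 (-0.42 to 0.29), and ZAT7 was -0.00 under median-of-ratios scaling. The cause was not tested.

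Calls over all genes between repeated cold and cold once were 226. They numbered 112 with no filter on low values, 368 with median-of-ratios scaling, 5 with only these groups in the fit, and 17 to 208 with 1 library left out. They were 17, 39, 84, 101, 112, 123 and 131 without cold once 3, repeated cold 1, control 3, control 1, repeated cold 3, cold once 2 and repeated cold 2. Of the 9 genes, 4 to 7 were called after cold once and 4 to 7 after repeated cold over all alternatives. Median-of-ratios scaling split the 8968 calls after cold once into 4536 higher and 4432 lower, and the 6824 after repeated cold into 3470 and 3354. Same-numbered libraries did not deviate together in every pair (correlations 0.03 to 0.22, 0.04 to 0.46 and -0.11 to 0.2 in the 3 comparisons). Unlike-numbered libraries gave -0.22 to 0.01, -0.44 to 0.13 and -0.3 to 0.2. Against control the same-numbered values were all positive, and whether the numbers mark shared handling was not tested. The numbers were not taken as a pairing. With a replicate block, all-gene calls were 10054, 7988 and 704, and 7, 6 and 1 of the 9 genes were called, AZF1 being the 1 between repeated cold and cold once (limma adjusted p = 0.0486). Limma voom on recovered reads called 9313, 6989 and 191 genes in the 3 comparisons. ZAT11 and AZF3, with few reads, are the most limited by depth.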
